A study of Mus musculus with 12 samples.

Results

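The regions described here are 134 stretches of the mouse genome, each 1 kb long, at which DNA methylation was lower in the brain of a bimaternal fetus at E19.5 (days of embryonic development) than in both a wild-type and a bimaternal whole embryo at E15.5. They are 0.267% of the 50096 autosomal tiles measured in those 3 libraries. A tile was a member if its mean methylation in the E19.5 brain lay at least 25 percentage points below each embryo. The mean was taken over at least 5 cytosines that reached 20% in any of the 12 libraries of the study. The members were chosen by the measured levels of these 3 libraries, so the difference between embryo and E19.5 brain is a description and was not tested. Taken singly, the E19.5 brain was as much below the WT embryo in 194 tiles (0.387%) and below the BM embryo in 245 (0.489%). Between those embryos, BM stood as much below WT in 20 tiles (0.0399%) and above it in 292 (0.583%). In the opposite direction, 1594 tiles (3.18%) stood at least 25 points higher in the E19.5 brain than in both embryos.

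The study produced mice from haploid embryonic stem cells (ESCs) that carry the genome of a single parental origin, and its methylation data come from RRBS (reduced representation bisulfite sequencing), in which the enzyme MspI cuts out CpG-rich fragments for reading. The wild-type (WT) embryo grew from an ordinary fertilised egg. For the bimaternal (BM) embryo a parthenogenetic haploid ESC (phESC, maternal genome) was put into an MII oocyte. For the bipaternal (BP) embryo, sperm and an androgenetic haploid ESC (ahESC, paternal genome) were put together into an oocyte without its own nucleus. All BM and BP samples, brains included, carry knockouts of differentially methylated regions, and the labels do not say which. The 12 libraries are WT, BM and BP whole embryos at E15.5, a BM brain at E19.5, BM and WT adult brains, and diploid ESCs, ahESCs and phESCs (all 3 labelled WT) at early and at late passage. Each group is a single library, so values have no replicate error and no p-value is given, and the spread over the cytosines of a tile is not a replicate error. The labels do not say whether a tissue library holds 1 animal or several.

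In mammals methylation sits mostly on the cytosine of CpG, and most CpGs outside CpG islands are methylated in most tissues. Regions that lose it in a single tissue are often regulatory DNA in use there, such as enhancers, or stretches within genes active in that tissue. A whole embryo mixes many tissues, of which brain is a small part, while a brain mixes neurons, glia and vessel cells. A fall in bulk tissue can therefore come from fewer methylated copies in every cell or from a larger share of cells that lack methylation, and these cannot be told apart here. Methylation shows no expression, so the tissue labels could not be checked against expressed marker genes.

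The sequences of 4 members follow, chosen to show the kinds of sequence involved: a coding exon of a calcium channel gene, an exon of a microtubule gene, and 2 promoter exons that go against the rest in the adult brain. Each is read 5′ to 3′ on the coding strand, and capitals mark the CpGs whose cytosines entered the tile mean. Bases are those of the GENCODE M21 transcripts, and coordinates are mm9, placed by the pattern of listed positions. The stretches lie at chr6:119007274-119007409 (Cacna1c, minus strand), chr9:109954672-109954971 (Map4, plus), chr13:73465788-73465874 (Ndufs6, minus) and chr8:109674618-109674686 (Cyb5b, plus).
Cacna1c: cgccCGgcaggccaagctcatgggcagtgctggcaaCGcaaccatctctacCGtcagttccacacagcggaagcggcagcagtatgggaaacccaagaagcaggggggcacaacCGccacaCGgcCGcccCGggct
Map4: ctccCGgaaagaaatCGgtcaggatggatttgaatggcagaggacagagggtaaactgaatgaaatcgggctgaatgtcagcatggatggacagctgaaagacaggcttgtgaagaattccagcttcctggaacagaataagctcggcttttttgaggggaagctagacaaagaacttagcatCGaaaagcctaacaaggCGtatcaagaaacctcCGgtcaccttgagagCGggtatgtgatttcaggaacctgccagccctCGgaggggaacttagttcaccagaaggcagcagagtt
Ndufs6: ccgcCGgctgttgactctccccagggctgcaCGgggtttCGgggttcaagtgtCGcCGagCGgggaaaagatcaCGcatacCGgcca
Cyb5b: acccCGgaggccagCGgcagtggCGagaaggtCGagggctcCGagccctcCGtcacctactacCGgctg

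Between 3773871 positions (BP embryo) and 5903648 positions (WT adult brain) had a value in a library. How many reads stand behind a value is unknown, so no counting interval can be given. Of the libraries, 4 hold values at chromosome Y sequence without a fixed place (late ahESC, late phESC and both adult brains) and are called the second library set, while the other 8 hold none. Every comparison of an adult brain with an embryo or with the E19.5 brain crosses these sets, and set and group cannot be told apart in it.

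Members had medians near those of all tiles in the embryos and stood out in the brains. The member median was 73.6% in the WT embryo, 76.0% in the BM embryo and 77.3% in the BP embryo, against 78.6%, 80.7% and 81.1% over all tiles. The rule leaves out low embryo levels. No member was below 25% in the WT or BM embryo, where 13.5% and 12.6% of all tiles were. In the E19.5 brain the median member stood at 41.6%, where the median tile stood at 86.1%. No member was above 75% there, and the values ran from 2.14% to 69.2%. In the adult brains the medians were 29.1% over 98 members with a value (BM) and 35.4% over 114 (WT), against 73.4% and 76.7% over all tiles. The difference ran through most kept cytosines, since 1156 of the 1177 cytosines in members (98.2%) were lower in the E19.5 brain than in both embryos, and 120 of the 134 members had every cytosine lower. The 1177 cytosines fall into separate runs, with a median of 5 runs per member and never under 3. The rule itself favours such tiles, so these counts describe them only.

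**Figure D1:**
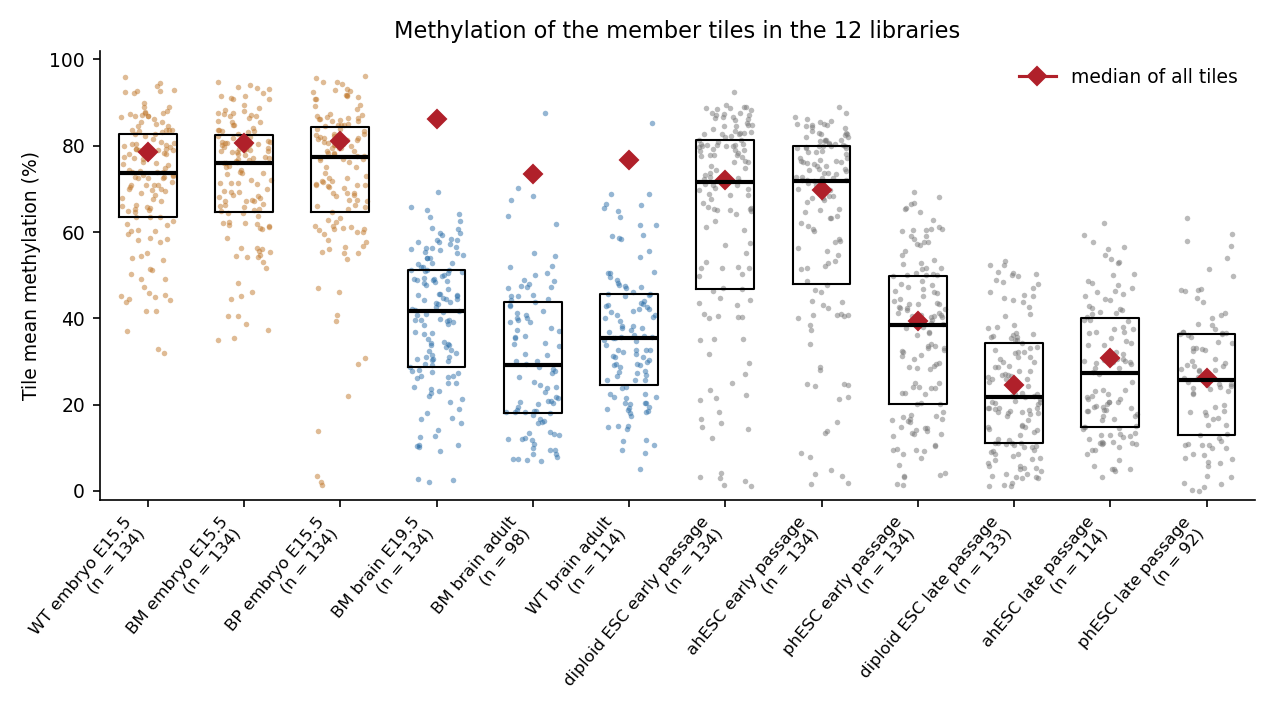
Tile mean methylation (%) of the members in each of the 12 libraries. Points are members, boxes span the 25th to 75th percentile with the median as a bar, n is the number of members with a value, and diamonds are the median of all tiles. Member medians lie near those of all tiles in the embryos and ESCs and below them in the 3 brains (41.6%, 29.1% and 35.4%).

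Whether the pattern also appears in libraries that the rule did not compare was asked of both adult brains and the BP embryo, using in each tile only cytosines with a value in both libraries, at least 3 of them. In the BM adult brain 65 of 83 measured members (78.3%) stood at least 25 points below the BP embryo, against 6.62% of all tiles. The median difference at members was -43.3 points and over all tiles -0.0286. In the WT adult brain 76 of 108 members (70.4%) were as much lower, against 4.3% of all tiles, with medians of -37.1 and 1.01 points. Lower in both adult brains were 57 of 83 members (68.7%), against 3.46% of 37279 tiles, and higher in both were 2, against 2.19%. Set against the embryo of their own kind, which the rule had used, the BM adult brain was lower at 65 of 85 members (6.23% of all tiles) and the WT adult brain at 83 of 110 (2.83%). None was at least 25 points higher there, against 2.22% and 3.29% of all tiles. Among tiles at 50% or more in the BP embryo, which leave room for a lower value, the shares were 63 of 74 members (85.1%) against 8.06% in the BM adult brain and 74 of 97 (76.3%) against 5.21% in the WT adult brain. Members at least 25 points higher were 3 in the BM and 2 in the WT adult brain, where the share of all tiles was 3.03% and 2.9%.

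These comparisons cross the library sets. Among stem cells, late ahESCs of the second set had a member median of 27.4% and late diploid cells, outside it, 21.8%, and over all tiles these medians were 30.8% and 24.6%. Late phESCs, also of the second set, had 25.7%, and 26.2% over all tiles. The member medians rest on 114 ahESC, 133 diploid and 92 phESC values. These libraries also differ in cell type, so set and cell type cannot be told apart in them. Of the 349 member cytosines whose sequence context is known, all were in CpG, and 94 lay in CCGG, the site MspI cuts. Cytosines in CCGG were lower in the adult brains than in the BP embryo by a larger mean difference (-37.6 points in BM and -32.3 in WT) than other CpGs (-27.4 and -25.7). These means pool cytosines over tiles that hold the kinds in unequal numbers, so the gap is not a comparison within tiles. With known CpGs outside CCGG alone, 16 of 23 members (69.6%) and 18 of 29 (62.1%) were at least 25 points lower in the BM and WT adult brain, against 4.41% of 8644 and 3.77% of 10533 tiles measured in the same way.

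**Figure D2:**
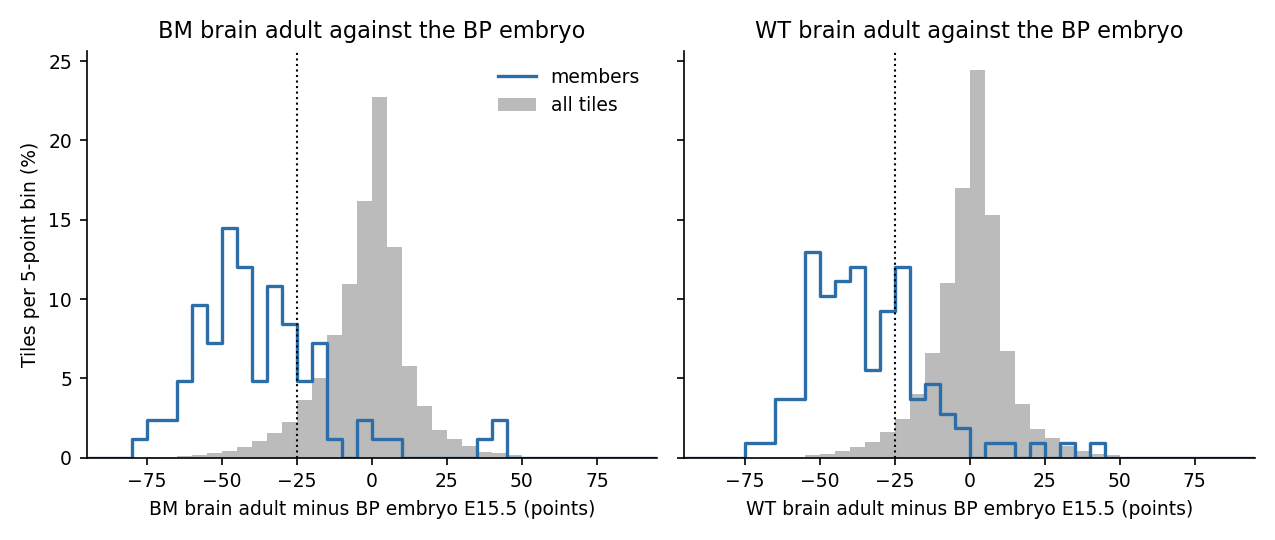
Difference in tile mean (percentage points) between the BM (left) and WT (right) adult brain and the BP embryo, as the percent of tiles in each 5-point bin. Grey bars are all tiles, the blue line is the members, and the dotted line marks -25 points. The members centre at -43.3 and -37.1 points, all tiles near 0, and a small group of members lies above 25.

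Adult and E19.5 brains, of which the E19.5 brain chose the members, differed by 25 points in about as small a share of members as of all tiles. In the BM adult brain 80 of 85 members (94.1%) and in the WT adult brain 105 of 110 (95.5%) lay within 25 points of the E19.5 brain. Over all tiles these shares were 91.8% and 96.1%. The median change from E19.5 was -7.91 points at members in the BM adult brain and -2.18 in the WT adult brain, against -5.54 and -4.29 over all tiles. At least 25 points lower than at E19.5 were 2 members in the BM adult brain, where 7.95% of all tiles were, and 3 in the WT adult brain, where 3.86% were. As many as 3 and 2 members were at least 25 points higher, against 0.235% and 0.0847% of all tiles. The BM and WT adult brains differed by less than 25 points at each of the 85 members measured in both, with a median difference of -3.15 points. Of all tiles 0.133% were at least 25 points lower and 0.034% higher in the BM than in the WT adult brain. The BP embryo was also close to the WT embryo, within 25 points at 127 of 132 members, and 5 members (3.79%) were at least 25 points lower in it, against 0.193% of all tiles.

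The members that are described below in full are the 20 with the largest difference among members with at least 10 cytosines, and the 5 that lie in listed genes. Others are named because of their values or their gene, after these were seen, and each such paragraph says so. Where 6 levels are given they are the tile means of the WT, BM and BP embryos and of the E19.5 BM, adult BM and adult WT brains, each over the cytosines of the tile that the library measured. A mean over fewer than 3 cytosines is not printed.

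Members are described by what their genes do, an order chosen after they were seen, and no list of channel, receptor or cytoskeletal genes was counted over all tiles. Kcna3, a voltage-gated potassium channel of the Shaker type, held a member with 10 cytosines. Its levels were 65.7%, 73.4% and 71.8% in the embryos and 31.1%, 16.6% and 26.9% in the brains. Kcna2, the neighbouring gene of the same channel family, held a member at chr3:106908001-106909000, which the rule for naming did not pick. It stood at 87.7%, 83.4% and 91.8% in the embryos and at 58.1%, 41.3% and 46.9% in the brains, over 5 cytosines. Of the other measured tiles of genes of this family, named after their values were seen, none was a member. Kcna1 stood between 5.51% and 6.67% in the embryos and brains, and Kcna6 had a tile at 84.7% in the WT embryo and 91.6% in the E19.5 brain. A Kcna5 tile went the other way, from 22.1% in the WT and 24.96% in the BM embryo to 54.2% in the E19.5 brain.

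Grik5, a subunit of kainate-type glutamate receptors, had a member in its gene body at chr7:25854001-25855000 with 10 cytosines. The embryo levels were 66.1%, 69.4% and 68.9%, and the brain levels 28.03%, 34.3% and 32.7%. Gria1, a subunit of AMPA-type glutamate receptors, had levels of 80.5%, 84.7% and 75.1% in the embryos and 44.6%, 31.5% and 37.8% in the brains in its gene body at chr11:56884001-56885000. The Grik5 tile was thus as low in the fetal as in the adult brains, and the Gria1 tile was lower still in the adults. Scn8a, a voltage-gated sodium channel of neurons, had lower embryo levels at chr15:100740001-100741000, namely 47.3%, 54.6% and 53.7%, and brain levels of 20.5%, 9.47% and 14.5%. Cacna1c, the pore subunit of an L-type calcium channel, was named after its values were seen. Its exon tile stood at 80.5%, 85.8% and 86.8% in the embryos and at 51.0%, 43.9% and 40.8% in the brains. The 11 cytosines of that tile were even in the E19.5 brain (SD 6.91 points) and less so in the adult BM brain (SD 22.9). There the strands of a CpG read apart, with 21.6% and 67.8% at 119007283 and 119007284 and 26.0% and 69.7% at 119007372 and 119007373. In the E19.5 brain these pairs held 59.8% and 58.4%, and 51.9% and 44.7%. The adult BM mean of 43.9% thus blends unlike strand values, and the cause was not tested. Of 21 other measured tiles of Cacna1c, 8 were lower in the E19.5 brain than in the mean of both embryos, with a median difference of 1.19 points, so most of the gene did not share the difference.

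The gene body of Tenm4, a teneurin that acts in cell contacts between neurons, held a member at chr7:104018001-104019000. Its levels were 70.8%, 72.1% and 84.5% in the embryos and 41.0%, 24.2% and 32.7% in the brains. Ncam1, the neural cell adhesion molecule, stood at 63.4%, 64.4% and 55.1% in the embryos and at 34.1%, 20.4% and 27.9% in the brains at chr9:49536001-49537000. In both tiles the adult BM brain was the lowest of the 6 libraries. The next genes were named after their values were seen. Ntrk2, the receptor of the growth factor BDNF, was among the members with the larger differences, from 76.9%, 79.6% and 81.5% to 35.2%, 15.9% and 21.7%. Unc5d, a netrin receptor of the guidance system, went from 80.2%, 79.7% and 81.3% in the embryos to 50.6% at E19.5 and 48.8% in the WT adult brain. Anks1b, which encodes a protein of the postsynaptic density, held 2 members 145 kb apart, of which the first stood at 67.3% in the WT embryo and 31.6% in the E19.5 brain and the second at 69.9% and 39.5%.

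The tile at chr9:109954001-109955000 spans an internal start of Map4, a microtubule-associated protein, and the exon printed above. Its 13 cytosines (9 in the adult BM brain) gave 69.5%, 64.8% and 62.3% in the embryos and 22.8%, 16.2% and 22.5% in the brains. It was also low in the early ESCs, at 14.2% in diploid cells, 21.2% in ahESCs and 16.5% in phESCs, so the whole embryos stand apart from both brain and early stem cells. Dclk1, a doublecortin-like kinase that binds microtubules, had 20 cytosines at chr3:55156001-55157000, with 72.5%, 79.4% and 80.3% in the embryos and 39.9%, 39.1% and 41.4% in the brains. The 3 brain values of Dclk1 lay within 3 points of each other. Named after its values were seen, Cdk5r1, which encodes the neuronal activator p35 of the kinase Cdk5, stood at 70.9%, 63.8% and 70.9% in the embryos and at 34.3%, 18.3% and 20.5% in the brains. Ncdn, a neuronal gene for neurochondrin named likewise, held 18 cytosines in an exon, all lower in the E19.5 brain, and went from 87.4%, 86.8% and 90.9% to 59.7%, 35.9% and 38.3%.

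Among nuclear factors, Rbfox3 encodes NeuN, a splicing factor used as a marker of mature neurons. Its member at chr11:118653001-118654000 stood at 70.96%, 71.04% and 70.8% in the embryos and at 45.1%, 25.4% and 30.0% in the brains. With the median over its 6 cytosines the smaller difference was -23.7 points, so the tile is then no member. The other 39 measured tiles of Rbfox3 had a median difference of 3.07 points between the E19.5 brain and the mean of both embryos, and 14 of them were lower. Sox8, a transcription factor of neural crest and glia, held 10 cytosines of an exon at chr17:25704001-25705000. It stood at 86.9%, 89.3% and 84.9% in the embryos and 55.9% in the E19.5 brain. The WT adult brain measured 5 of the 10 cytosines, with a mean of 66.4%, and the BM adult brain fewer than 3. Brd1, a scaffold of histone acetyltransferase complexes, stood at 84.6% and 76.2% in the WT and BM embryos and at 46.7% in the E19.5 brain, and was not measured in the adult brains. Pcif1, a methyltransferase that modifies the cap of mRNA, stood at 88.0%, 87.2% and 90.8% in the embryos and at 57.7%, 44.5% and 43.6% in the brains, the adult values resting on 4 of its 11 cytosines. Another member 5 kb from it spans the ends of Pcif1 and of Zfp335, a zinc finger gene needed in neural progenitors, and went from 70.4% in the WT embryo to 43.2% in the E19.5 brain. Fbxl2, an F-box protein gene, had the largest difference of all members with at least 10 cytosines. Its 14 cytosines at chr9:113890001-113891000 gave 74.4%, 76.6% and 77.1% in the embryos and 30.1%, 12.05% and 29.3% in the brains. The adult values rest on 8 (BM) and 13 (WT) of them.

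Exons of 2 homeobox genes, which pattern the axis of the embryo, started from middle levels. Hoxa3 at chr6:52150001-52151000 stood at 44.4% and 40.5% in the WT and BM embryos, 22.0% in the BP embryo and 10.3%, 13.4% and 17.3% in the brains. This exon tile of Hoxa3 lies between placed stretches of Hoxa4, 8249 bp away, and Hoxa5, 753 bp away. Hoxd4, named after its values were seen, had 41.7%, 46.0% and 30.8% in the embryos and 10.3%, 10.96% and 14.9% in the brains. At both genes the BP embryo lay between the other embryos and the brains. The other 6 measured Hoxa3 tiles were at most 27.9% in any of the embryos and brains, and all 9 other measured tiles that overlap Hoxd3, whose annotated body includes Hoxd4, were lower in the E19.5 brain than in the mean of both embryos, with differences of -2.28 to -15.5 points.

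Of the 20 largest members with at least 10 cytosines, 9 lay in no placed gene. At chr15:85509001-85510000, with 18 cytosines, the levels were 57.6%, 60.6% and 70.8% in the embryos and 23.6%, 12.2% and 18.5% in the brains. The tile at chr18:83018001-83019000 stood at 72.5%, 78.6% and 78.7% in the embryos and 41.8% at E19.5, and at 15.1% over the 4 of its 10 cytosines that the WT adult brain measured. The others varied in the adult brains. At chr10:116915001-116916000 (20 cytosines) the brains held 33.7%, 20.9% and 35.4% against 65.2% or more in the embryos. At chr9:31374001-31375000 and chr14:79177001-79178000 the adult brains were a little higher than or level with the E19.5 brain, with 36.7%, 44.2% and 43.9% in the brains at the former and 32.0%, 42.8% and 32.6% at the latter. At chr11:88757001-88758000 the adult BM brain stood at 68.3% and the adult WT brain at 45.2%, against 43.9% at E19.5 and 73.9% to 95.7% in the embryos. Levels at chr5:112527001-112528000 were 49.1%, 51.7% and 56.6% in the embryos and 19.01%, 28.2% and 25.7% in the brains. The tiles at chr4:82351001-82352000 and chr12:81392001-81393000 were not measured in the adult brains and stood at 42.2% and 38.5% in the E19.5 brain against 78.1% and 73.0% in the WT embryo.

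The largest differences of all, whatever the number of cytosines, were at Hps4 and Vxn, both named after their values were seen. A gene body tile of Hps4, which acts in the making of lysosome-related organelles, stood at 86.9%, 85.6% and 69.0% in the embryos and at 34.5%, 21.5% and 46.0% in the brains, over 6 cytosines. The adult BM value rests on 3 of these. A promoter tile of Vxn (vexin), a gene of neural differentiation, had 83.6%, 80.4% and 64.5% in the embryos and 29.4%, 12.9% and 18.2% in the brains.

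At 3 promoters the adult brains went against the rest of the members. Ndufs6, a subunit of complex I of the respiratory chain, stood at 32.0% in the WT and 44.4% in the BM embryo, 2.12% in the BP embryo and 2.14% in the E19.5 brain at chr13:73465001-73466000. In the adult brains it was at 39.6% (BM) and 42.6% (WT), between the values of those 2 embryos. Cyb5b, a cytochrome b5 of the outer mitochondrial membrane, gave 37.1%, 35.4% and 1.44% in the embryos, 2.64% at E19.5, and 43.1% and 35.8% in the adult brains at chr8:109674001-109675000. Each rests on 14 cytosines, of which the printed exons hold 14 and 13. In the Ndufs6 tile the BM embryo values ran from 34.5% to 50% and the E19.5 brain values from 0% to 9.28%, so the cytosines of the tile moved as a block. The last, named after its values were seen, is the promoter of Mff, a gene of mitochondrial fission, with 32.8%, 35.1% and 3.45% in the embryos, 2.74% at E19.5 and 47.4% and 27.4% in the adult brains, over 5 cytosines. In early diploid ESCs the 3 promoters stood at 1.36%, 2.38% and 1.14%. These 3 are the members that stood at least 25 points higher in the BM adult brain than in the E19.5 brain, and Ndufs6 had the largest difference upward from the E19.5 to the WT adult brain of all 44841 tiles measured in both, at 40.5 points. With the Arl8a promoter (45.2%, 45.1% and 13.97% in the embryos, 15.7%, 29.4% and 29.3% in the brains) and Hoxa3, these are the 5 members below 25% in the BP embryo.

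**Figure D3:**
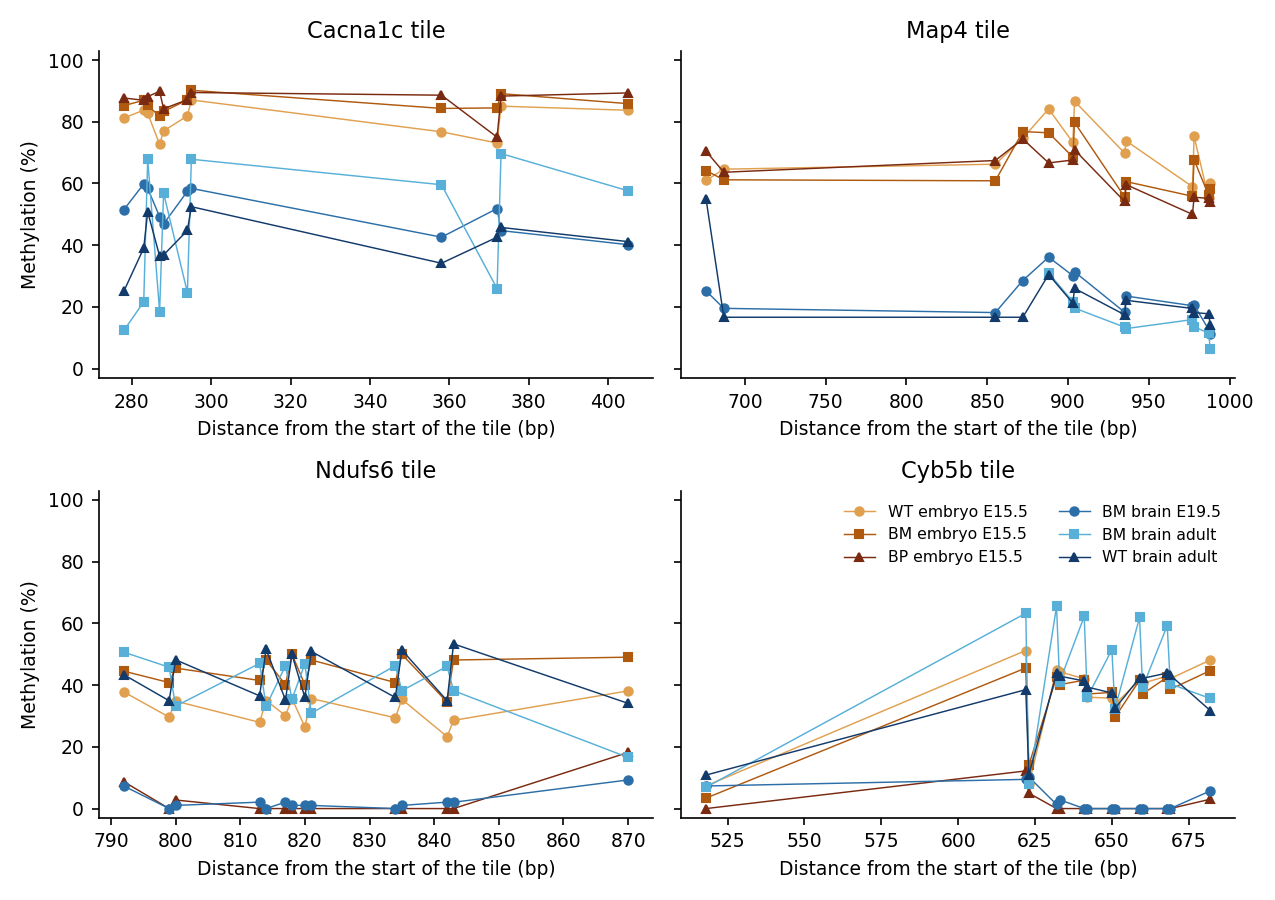
Methylation (%) of each cytosine that entered the tile mean, by distance from the start of the tile (bp), in 4 member tiles. Brown symbols are the WT, BM and BP embryos and blue symbols the E19.5 BM, adult BM and adult WT brains. In Cacna1c and Map4 the brains lie below the embryos. In Ndufs6 and Cyb5b the BP embryo and the E19.5 brain lie near 0 at most cytosines, and the other 4 libraries have medians of 32.5% to 45.0%. The adult BM brain ranges from 6.90% to 65.5% in Cyb5b.

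Some other members, named after their values were seen, had adult values above the E19.5 value, and at Cchcr1 they were nearer to the embryos than to it. Cchcr1 stood at 95.9%, 94.0% and 92.3% in the embryos, 64.2% at E19.5, and 87.6% and 85.3% in the adult brains, over 5 cytosines. Foxp4, a forkhead transcription factor and the member with the most cytosines (23), stood at 83.2%, 83.6% and 70.6% in the embryos, 55.4% at E19.5, and 70.1% and 65.5% in the adult brains. The BP and adult values rest on 17 of the 23 cytosines. On shared cytosines the adult BM brain differed by 3.46 points from the BP embryo, -11.3 from the BM embryo and 16.5 from the E19.5 brain. The adult WT brain differed by -1.55 points from the BP embryo, -13.4 from the WT embryo and 11.9 from the E19.5 brain. Of the opposite kind was a tile with no placed gene at chr15:98781001-98782000, which went from 89.9%, 87.9% and 89.3% in the embryos to 45.7% at E19.5 and on to 13.1% and 20.04% in the adult brains.

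In the stem cells the members did not differ much from other tiles. Early diploid ESCs had a member median of 71.5% (72.0% over all tiles), early ahESCs 71.9% (69.6%) and early phESCs 38.4% (39.3%). At late passage the medians were 21.8% in diploid cells, 27.4% in ahESCs and 25.7% in phESCs, against 24.6%, 30.8% and 26.2% over all tiles. In 97 of the 134 members early diploid cells lay within 25 points of both embryos (72.4%, against 77.9% of all tiles). In 27 members (20.1%, against 14.1% of all tiles) they lay at least 25 points below both embryos, at levels from 1.14% to 55.1% with a median of 21.5%. Besides Map4, examples of this kind, named after their values were seen, are Ccnd2, which encodes cyclin D2, at 4.20% in early diploid cells against 81.6% in the WT embryo and 50.6% in the E19.5 brain, and Lef1, a transcription factor of the Wnt pathway, at 12.2% against 65.2% and 39.3%. Members below 25% in early diploid cells were 17 (12.7%), against 17.4% of all tiles.

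Members lay on all 19 autosomes and mostly alone. Chromosome 5 held 16 and chromosome 15 held 13, the latter being 5.30 per 1000 measured tiles. No member touched another, and 3 pairs lay within 50 kb of each other. By exons and promoters placed on the file's positions, 18 members (13.4%) overlapped a promoter, from 1000 bp upstream to 500 bp downstream of a start, against 16.5% of all tiles. A further 26 (19.4%) overlapped an exon and 41 (30.6%) a gene body outside these, against 20.9% and 17.7%. The other 49 (36.6%) overlapped no placed gene, against 45.0%. Members thus lay in gene bodies outside exons in a larger share than all tiles, a difference that was not tested. They held a median of 8 kept cytosines, as did all tiles, and 32.5 listed positions against 36.

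The difference was smaller in neighbouring tiles. The rule chose members on the E19.5 difference, so a smaller value in tiles that are no members is largely set in advance. The E19.5 values by distance therefore describe the neighbours and measure no extent. Of the 27 measured tiles next to a member, 22 (81.5%) were lower in the E19.5 brain than in the mean of both embryos, against 17.4% of all tiles, with a median difference of -11.6 points. At 2 kb the median was -2.48 points over 14 tiles, at 3 kb 1.67 over 16, at 5 kb -1.58 over 19 (of which 2 are members themselves), and at 10 kb 3.22 over 17, against 4.46 points over all tiles. The share of lower tiles was 57.1%, 43.8%, 57.9% and 35.3% at these distances, still above that of all tiles, and 18.2% of 11 tiles at 20 kb. The difference between the WT adult brain and the BP embryo shrank along with it, from -37.1 points at members to -17.4 at 1 kb, -16.0 at 2 kb, -4.69 at 3 kb, -5.53 at 5 kb and -2.30 at 10 kb, against 1.01 over all tiles. Few neighbours were measured, since RRBS covers separate CpG-rich fragments. The 94 genes that a member overlaps had 458 other measured tiles, of which 165 (36.0%) were lower in the E19.5 brain than in the mean of both embryos, with a median difference of 2.13 points.

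**Figure D4:**
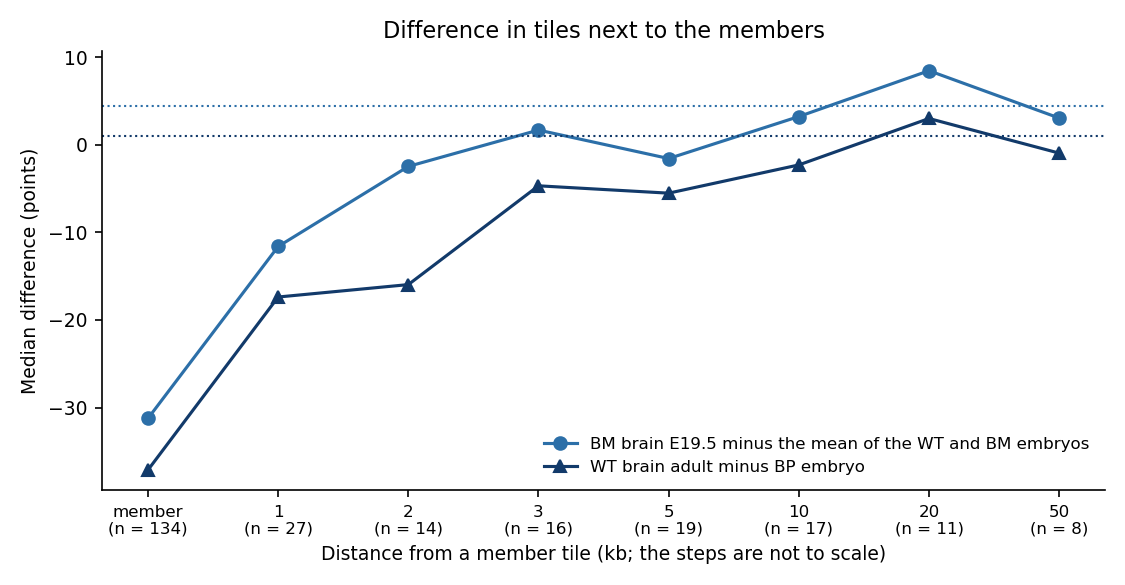
Median difference in methylation (percentage points) in member tiles and in measured tiles at set distances from a member (kb, not to scale), for the E19.5 brain minus the mean of the WT and BM embryos (circles) and the WT adult brain minus the BP embryo (triangles). The n is the number of tiles of the first difference, and dotted lines are the medians of all tiles (4.46 and 1.01 points). Both differences are smaller away from the members, from -31.2 and -37.1 points at the members to -11.6 and -17.4 at 1 kb and 3.22 and -2.30 at 10 kb. The first difference chose the members, so its decline away from them is largely set by the rule.

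Lists of genes by cell type and role were set against the members. Of 35 measured neuronal and synaptic genes 4 held a member (Rbfox3, Gria1, Scn8a and Ncam1), and of their 297 tiles 4 were members (1.35%), against 85 of 27569 tiles in any placed gene (0.308%). Among 33 genes of axon guidance and adhesion the count was 1 (Tenm4), at 0.342% of 292 tiles. None of 27 neural transcription factors held one, over 140 tiles. The same count of 0 was found for 10 astrocyte, 8 oligodendrocyte, 8 microglia and blood, 14 muscle and heart, 5 endothelial, 9 epithelial and skin, 10 skeletal and connective, 7 liver and gut and 12 germline genes. These lists had from 17 tiles (germline) to 69 (muscle and heart). That is too few for a count of 0 to stand apart from the share of 0.308%, and so are the 140 of the neural transcription factors. Over all 12310 measured genes 94 held a member. The counts of the lists are small, and the lists were not tested.

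The 5 members nearest to it had a smaller difference of -25.2 to -25.01 points, and include tiles in Alox5ap, Golga7b and Cnnm2. The 5 tiles just outside had -24.96 to -24.84 points, and include tiles in Pdlim7 and in Cacng4, a gene of an AMPA receptor regulatory subunit, which stood at 83.7% and 84.6% in the WT and BM embryos and at 58.8% in the E19.5 brain. In the adult BM and WT brains Cacng4 stood at 72.8% and 63.1% and Pdlim7 at 62.6% and 63.9%, and the other 3 tiles outside between 29.6% and 47.7%. The 3 tiles inside that the adult brains measured stood between 18.6% and 39.2%, lower than Cacng4 and Pdlim7. Golga7b stood at 51.2% and 66.1% in those embryos and at 26.1%, 18.6% and 20.3% in the E19.5, adult BM and adult WT brains.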

How the data were processed

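RRBS was done on 12 mouse libraries, 1 per group. Per the labels, DNA was cut with MspI. Per the submitters' processing notes, the authors used Trim Galore and Bismark 0.13.1 on build mm9. The deposited file gives a methylation percent (0 to 100) per cytosine for 8119606 positions, other values being marked missing, and no coverage, so that low-depth cytosines count as much as others. Listed positions are those of CG and GC on either strand. The 20% minimum kept 674175 autosomal cytosines. Of those with known context 98.7% were CpG.

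Exons (GENCODE M21) and RefSeq promoter windows, both of GRCm38, were placed on mm9 where at least 8 listed positions all matched their sequence pattern, with no coordinate conversion. Of 458698 segments 20.4% were placed, and 0.0233% of 12848 matched at a false shift of 2017 bp. Gene bodies run between placed segments of a gene. A tile with no placed gene may still lie in a gene.

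Contrasts outside the rule used cytosines measured in both libraries (at least 3), and medians and counts at 25 points stand beside those of all tiles. Members, lists and tests were chosen with earlier results of these data known. Members named in full are the 20 with the largest smaller difference among those with at least 10 cytosines, those in listed genes, and the 5 tiles on each side of the threshold. Alternatives were fewer or more cytosines, other minimum levels, thresholds, tile starts, the median, each library's own cytosines, narrower promoters and, added after seeing the data, CpGs outside CCGG. The calling of tiles was tried on simulated data with independent reads at a fixed depth. Depth is unknown in the real libraries, so the simulation gives no rate of false calls for them. Tables were computed with pandas 2.3.3 and NumPy 2.4.6 in Python 3.11.15, placements with numba 0.67.0, intervals with SciPy 1.17.1 and plots with Matplotlib 3.10.9.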

Additional observations from a re-analysis of the deposited data

Results flagged for a closer look

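At 2 members the BM brain at E19.5 lay below the BM embryo while the BM adult brain lay above it, on the cytosines measured in both. At the Cyb5b promoter (chr8:109674001-109675000) the BM adult brain was 7.64 points above the BM embryo, and the E19.5 brain differed from it by -32.8 points. There the strands of a CpG read apart in the BM adult brain, with 65.5% and 41.0% at 109674632 and 109674633. The BM embryo held 42.6% and 40.2% at these positions. At 109674641 and 109674642 the BM adult brain held 62.2% and 36.1% and the BM embryo 41.6% and 37.1%. At the Mff promoter (chr1:82721001-82722000) the BM adult brain was 12.3 points above the BM embryo, and the E19.5 brain differed from it by -32.3 points. With 1 library per group neither difference was tested. The adult library is of the second library set, and the part of the set was not tested.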

How the results depend on the processing

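The number of members depends on the choices of the rule. It was 134, and became 239 with 3 cytosines per tile, 42 with 10, 287 at 20 points and 22 at 35 points. With no minimum level it was 6, of which 2 are members of the main list, since the means then also hold cytosines that stay under 20% in all 12 libraries. Shifting the tiles by 500 bp gave 128, a minimum level reached outside the 3 libraries 134, and the median over cytosines 198, which included 115 of the 134.

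Members at least 25 points below the BP embryo were 100% (15 of 15) in the BM and 84.2% (16 of 19) in the WT adult brain at 35 points, and 33.3% (1 of 3) in each with no minimum level. Members within 25 points of the E19.5 brain in the BM adult brain were 85.6% with the median over cytosines. The other 37 recomputed values of these results lay within the exact 95% binomial interval of the main value, or within 1.5 times the main count. These limits served only as a yardstick. The interval treats tiles as separate trials, though each group is 1 library and the settings share tiles, so it gives no replicate error. With the median over cytosines, 24 of the 25 tiles named by rule stayed at least 25 points below both embryos, the exception being Rbfox3 at -23.7 points. With no minimum level 1 of the 25, Grik5, did, and the other 24 had differences of -24.3 to -3.65 points. No paired analysis was possible because each group has 1 library and no result comes from a test.

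Unknown depth and single libraries limit all values. A difference of 25 points at a single tile has no replicate check, and the 4 libraries of the second set measured 92 to 114 of the 134 members.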
